A study of Mus musculus with 6 samples.

Results

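The 7 long non-coding RNA (lncRNA) genes described here had very high levels in mouse sperm, testes or both. They are NONMMUG074735.1, NONMMUG020754.2, NONMMUG049565.1, NONMMUG031296.2 and NONMMUG039964.2, known genes of the NONCODE lncRNA collection, and LXLOC_037274 and LXLOC_042885, which the authors assembled from their own reads. They were chosen by name on their measured level, from the lncRNA genes with the highest mean FPKM over all 6 samples, leaving out NONMMUG018329.2, the gene with the highest mean. FPKM counts fragments relative to the length of the transcript and to the depth of the sample. They are 7 of 44128 lncRNA genes listed in at least 1 sample. Since their level chose them, levels and order are a description with no test. The mean over 4 sperm and 2 testes samples also favours genes that are high in sperm. The fold changes and p-values below use these same values, so they describe the chosen genes and are no independent test.

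An lncRNA is a transcript longer than a short regulatory RNA that is not translated into a known protein. Some lncRNA act in the nucleus on chromatin and others bind RNA or protein, while for most no role is known. Mature sperm have compacted chromatin and little transcription, so the RNA they carry is largely left from earlier stages of spermatogenesis or taken up in the epididymis. The names of these 7 genes give no role, and the tables give neither their sequence nor their position.

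RNA came from C57BL/6 mice aged 3 to 5 months per the labels, in 4 sperm and 2 testes samples. The methods of the study name the substrain C57BL/6J and give an age range in weeks that begins and ends lower. No allele, transgene or treatment is named for either group. Sperm were collected from the caudal epididymis and vas deferens, pooled over mice and freed of somatic cells by lysis. A sperm sample is thus a pool and not an animal. The testes came from the same mice, and the study does not say how many mice each testes sample holds. Because sperm replicate 1 failed the correlation check of the study, group means cover sperm replicates 2 to 4 (n = 3) and testes replicates 1 and 2 (n = 2), and replicate 1 is given beside them.

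Estimated counts totalled 366455 to 1058017 in the sperm samples and 2606086 and 2866856 in testes, and lncRNA held 86.0% to 89.5% of them in every sample. Late spermatid and sperm markers were listed in sperm for 10 of 12 genes, at 285 to 437 ppm of counts against 375 and 390 ppm in testes. Of these, 5 reached 10 counts in a sperm sample and no other had more than 6. The sperm sum thus rests mostly on those 5. Single genes are given as estimated counts, not scaled for depth. The testes totals are the larger, so a lower sperm count does not by itself mean a lower level. Prm2, a protamine that packs sperm DNA, had 45, 148, 49 and 130 counts in the 4 sperm samples, against 465 and 220 in testes. Odf2 of the outer dense fibres had 12, 78, 13 and 27 against 236 and 338, Tnp2, a transition protein, 3, 18, 0 and 4 against 95 and 127, Tssk6, a testis kinase, 7, 30, 79 and 27 against 24 and 29, and Spem1 48, 30, 0 and 32 against 21 and 16. Prm1, the other protamine, had 6, 2, 0 and 2 counts in sperm against 123 and 116 in testes. Markers of earlier germ cells were listed in sperm for 0 of 8 genes and summed to 9.07 and 15.0 ppm in testes. The limit of 3 counts stood between 2.84 and 8.19 ppm in sperm, but it holds for a single gene and not for a sum. No gene of this list exceeded 13 counts in testes. At the depth of sperm replicates 1, 3 and 4, such a level could go unlisted. Sertoli, Leydig and peritubular cell markers were listed in sperm for 5 of 12 genes and summed to 0 ppm in replicate 1, 20.8 in replicate 2, 109 in replicate 3 and 15.7 in replicate 4, against 71.5 and 74.6 in testes. Star, a cholesterol carrier of Leydig cells, had 0, 16, 40 and 6 counts in sperm and 168 and 148 in testes. It was the only marker of its list listed in sperm replicate 3. The 109 ppm there was thus Star alone, above the sums of the list in testes. Epithelial markers (4 of 10 genes) summed to 7.56 to 24.6 ppm in sperm and 11.9 and 21.1 in testes, leukocyte markers (2 of 7) to 0 to 2.84 and 3.07 to 5.93, and red cell markers (1 of 5) to 0 to 0.945 and 1.15 to 1.74. Kit of early germ cells, Cdh1 of epithelium and Ptprc of leukocytes were at 0 in all 6 samples, testes included, so their zeros do not tell sperm from testes. What part any of these lists has in the values below was not tested.

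The 7 genes fell into 2 kinds. NONMMUG074735.1, NONMMUG049565.1, NONMMUG031296.2 and LXLOC_042885 were abundant in sperm and 41.3-fold to 136-fold lower in testes by mean share of counts. LXLOC_037274, NONMMUG039964.2 and NONMMUG020754.2 were among the most abundant genes of both sources, with sperm to testes ratios of 1.83, 2.88 and 0.937. Together the 7 genes held 12.9%, 12.4%, 16.2% and 13.99% of the counts of sperm replicates 1 to 4 and 1.57% and 2.20% of those of testes. The 4 sperm-high genes alone held 11.1% ± 0.942 (SD over 3 samples) in sperm, and their testes share was 0.115% ± 0.0548 (SD over 2 samples). The other 3 held 3.11% ± 0.991 and 1.77% ± 0.392. In bulk samples, fewer cells with an RNA and less of it per cell cannot be told apart.

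**Figure D1:**
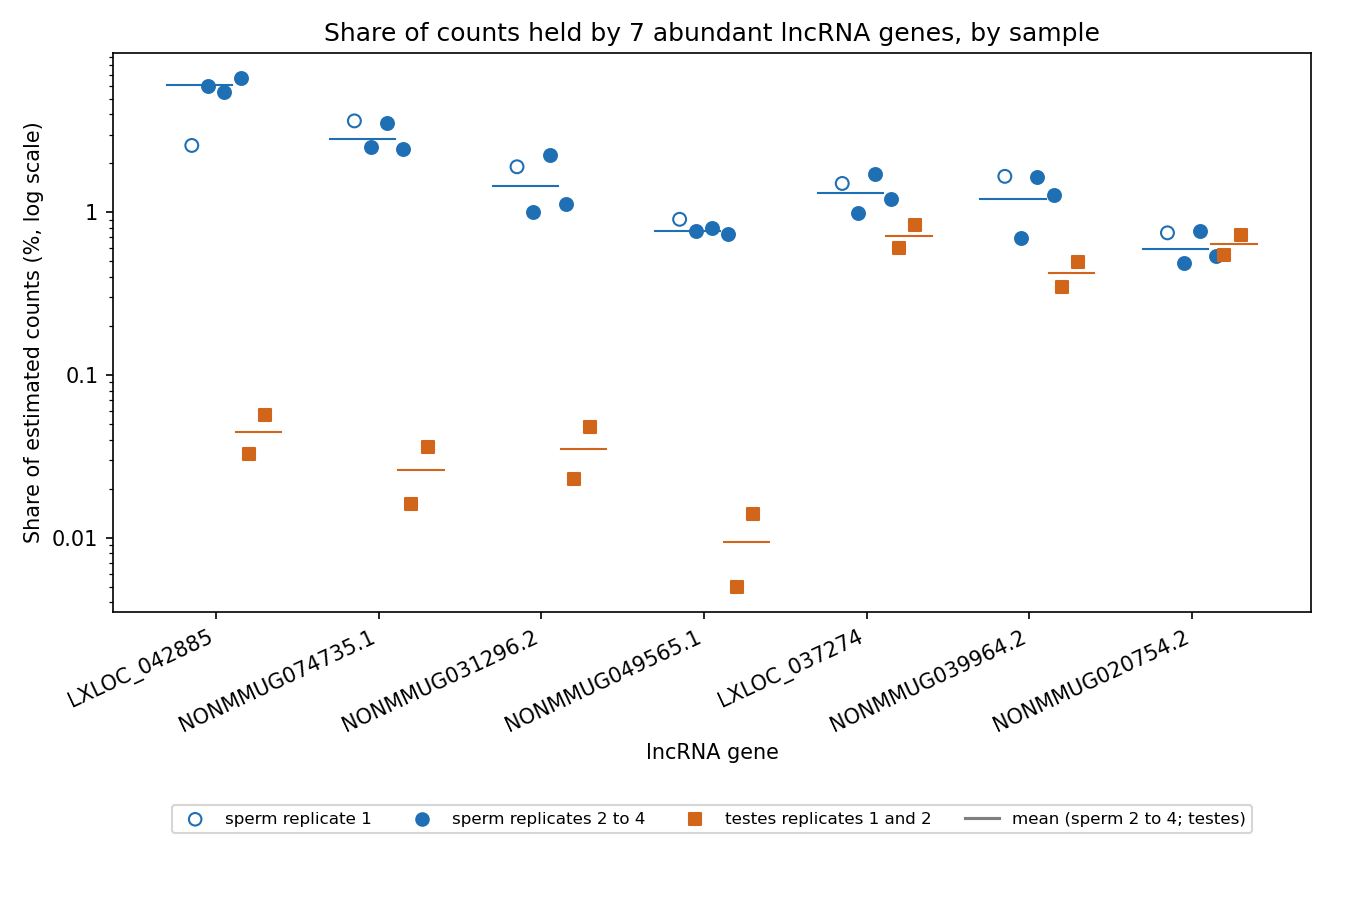
Share of each sample's estimated counts (percent, log axis) held by each of the 7 lncRNA genes. Open circles are sperm replicate 1, filled circles sperm replicates 2 to 4, squares the 2 testes samples and lines the group means. For the 4 genes on the left the testes samples sit far below sperm, at 0.00498% to 0.0564%, while on the right NONMMUG020754.2 overlaps between sperm and testes.

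LXLOC_042885 had the highest share of the 7 genes in sperm replicates 2 to 4, and has 1 transcript of 5174 bases, LTCONS_00073241. It took 2.57%, 5.94%, 5.52% and 6.65% of the counts of sperm replicates 1 to 4 and 0.0325% and 0.0564% of those of testes. Replicate 1 stood below the other sperm samples by more than their range but far above testes. Per length, its FPKM was 4997 in replicate 1, 11503, 10732 and 12877 in replicates 2 to 4, and 63.1 and 110 in testes. The log2 fold change was 6.80 (SE 0.45, adjusted p = 1.66e-23) in the edgeR quasi-likelihood fit over all genes. The Wilson 95% interval ran from 0.0305% to 0.0347% in testes replicate 1 and from 0.0536% to 0.0594% in replicate 2. These intervals cover counting only, not the spread between samples.

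NONMMUG074735.1, whose 1 transcript NONMMUT119105.1 is 1716 bases long, took 3.64%, 2.51%, 3.53% and 2.46% of the sperm counts and 0.0161% and 0.0358% of the testes counts. Its FPKM was 21761, 14883, 21120 and 14638 in sperm and 95.9 and 214 in testes. It had the highest FPKM of the 7 genes in all 4 sperm samples and ranked between 2 and 4 among all genes there, while it ranked 1128 and 525 in testes. Sperm exceeded testes by 6.42 on the log2 scale (SE 0.48, adjusted p = 5.91e-20 by edgeR).

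NONMMUG049565.1 has 1 transcript of 674 bases, NONMMUT079695.1, the shortest of the 4 sperm-high genes. It held 0.905%, 0.769%, 0.805% and 0.731% of the sperm counts, the narrowest relative spread of the 7 in sperm, and 0.00498% and 0.0139% of the testes counts. These testes shares were 143 and 363 estimated counts. Per length, its FPKM of 14429, 12090, 12917 and 11526 in sperm stood close to that of LXLOC_042885 in replicates 2 to 4. The log2 fold change was 6.01 (SE 0.55, adjusted p = 2.15e-15 by edgeR).

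NONMMUG031296.2, with the 1318-base transcript NONMMUT050512.2, held 1.90%, 0.998%, 2.24% and 1.12% of the sperm counts and 0.0227% and 0.0477% of the testes counts. The sperm samples fell into a higher pair, replicates 1 and 3, and a lower pair, replicates 2 and 4, and the lowest of them was still 20.9-fold above the higher testes sample. Its log2 fold change was 4.98 (SE 0.49, adjusted p = 3.65e-14 by edgeR).

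Ratios between the 4 sperm-high genes were taken within each sample. NONMMUG031296.2 had 0.522 to 0.835 times the FPKM of NONMMUG074735.1 in the 4 sperm samples and 1.75 and 1.86 times in the 2 testes samples, ranges that do not overlap. The ratio of NONMMUG074735.1 to NONMMUG049565.1 was 1.23 to 1.64 in sperm and 0.959 and 1.21 in testes. LXLOC_042885 had 0.230 to 0.880 times the FPKM of NONMMUG074735.1 in sperm and 0.512 and 0.658 times in testes, so this ratio overlapped.

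**Figure D2:**
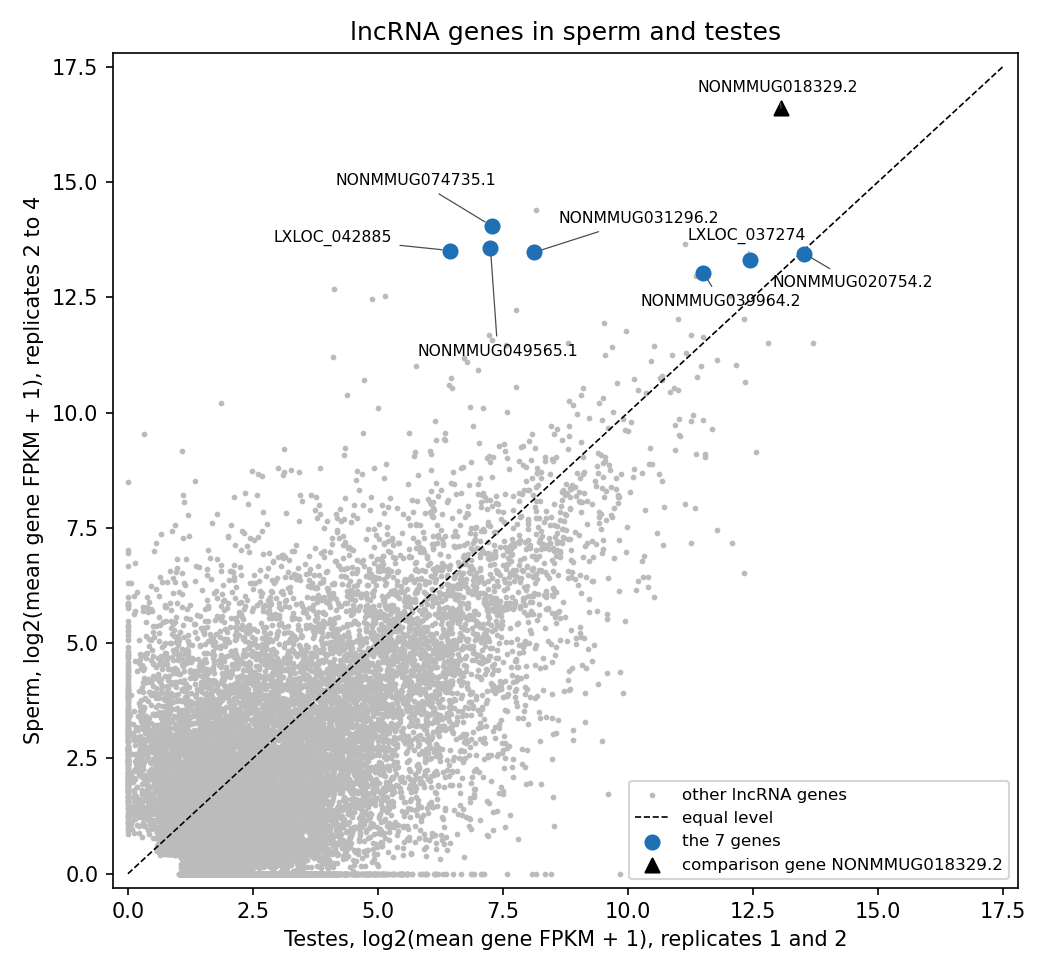
Mean gene FPKM in sperm replicates 2 to 4 (vertical) against testes (horizontal), both as log2(mean FPKM + 1), for lncRNA genes. Blue points are the 7 genes, the triangle is NONMMUG018329.2 and the dashed line marks equal level. The 7 genes share a narrow band of sperm level, with means from 8368 to 16880 FPKM, but spread in testes from 86.3 to 11818 FPKM.

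Of the 3 genes abundant in both sources, NONMMUG020754.2 was the most even. It held 0.747%, 0.487%, 0.766% and 0.535% of the sperm counts and 0.546% and 0.726% of the testes counts, and the 2 ranges overlap. Its FPKM was 13716, 9209, 14374 and 9964 in sperm and 10171 and 13466 in testes, where it ranked 2 among all genes in both samples. The log2 fold change was -0.40 (SE 0.38, adjusted p = 0.461 by edgeR) and did not pass the test. The ratio of the mean shares was 0.937, and it was 1.14 when counts were taken per RefSeq mRNA count, so its direction depends on the scale.

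LXLOC_037274, with 1 transcript of 1333 bases named LTCONS_00063834, held 1.503%, 0.986%, 1.73% and 1.21% of the sperm counts and 0.602% and 0.833% of the testes counts. All 4 sperm samples were above both testes samples, the lowest by 1.18-fold. Its log2 fold change was 0.54 (SE 0.37, adjusted p = 0.289 by edgeR), which did not pass. Scaling by library size alone gave an adjusted p of 0.00622, with the fold still under the threshold of 2.

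NONMMUG039964.2 held 1.66%, 0.698%, 1.65% and 1.27% of the sperm counts and 0.349% and 0.492% of the testes counts, again with no overlap. The log2 fold change was 1.17 (SE 0.39, adjusted p = 0.0357 by edgeR) and passed the test, but the call was lost without sperm replicate 2 (1.30, adjusted p = 0.0733), 3 (1.15, 0.183) or 4 (1.15, 0.309) and without testes replicate 1 (0.64, 0.647). It was also lost with DESeq2 (adjusted p = 0.209) and with limma on log2(FPKM + 1) (0.0533). Using all 4 sperm samples, it was kept (0.0102) without a replicate block and lost with one (0.283). Under the block, only replicates 1 and 2 of each source enter the difference. Over all 14 alternatives the log2 fold change of NONMMUG039964.2 ran from 0.64 to 1.503. The call for this gene thus depends on the choice of samples and test.

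Among these 3 genes the ratios to each other were as follows. LXLOC_037274 had 0.824 to 0.940 times the FPKM of NONMMUG020754.2 in sperm and 0.458 and 0.481 times in testes. NONMMUG039964.2 had 0.633 to 0.989 times the FPKM of LXLOC_037274 in sperm and 0.519 and 0.528 times in testes. The sperm and testes ranges of the ratio were apart in all 3 pairs of these genes and in 3 of the 6 pairs of sperm-high genes. The same holds for 73.3% of the 394716 pairs among 889 genes with a mean of at least 100 FPKM, so nothing is read from it. All pairs were counted on the log2(FPKM + 1) scale, a comparison chosen after the data were seen.

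In the fit over 24431 genes, a call needed an adjusted p below 0.05 and a fold above 2. Of the 7 genes, 5 were called higher in sperm and 0 lower, where 4.21% of all genes tested were called higher and 17.9% lower. All 4 sperm samples stood above both testes samples in 6 of the 7 genes and in 5.6% of all genes tested, and below both in 0 of the 7 and in 41.2% of all. By FPKM the counts among the 7 were the same, beside 5.57% and 41.1% of all genes. Nothing is read from these shares, because the choice of the genes favours a high sperm level. The median log2 fold change over all genes tested was -1.24, and it was -1.13 with library size alone and -1.02 with scaling factors from RefSeq mRNA, so all 7 genes lay above the median gene under these scalings. For the comparison gene NONMMUG018329.2 the log2 fold change was 1.99 (SE 0.33, adjusted p = 2.24e-06 by edgeR), below those of the 4 sperm-high genes. That call was lost without sperm replicate 4 (adjusted p = 0.0907) and under the replicate block (0.371), where only replicates 1 and 2 are compared. Its fold depended on the unit: the sperm to testes ratio was 4.56 by share of counts and 11.6 by FPKM, and limma on log2(FPKM + 1) gave a log2 fold change of 3.53.

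**Figure D3:**
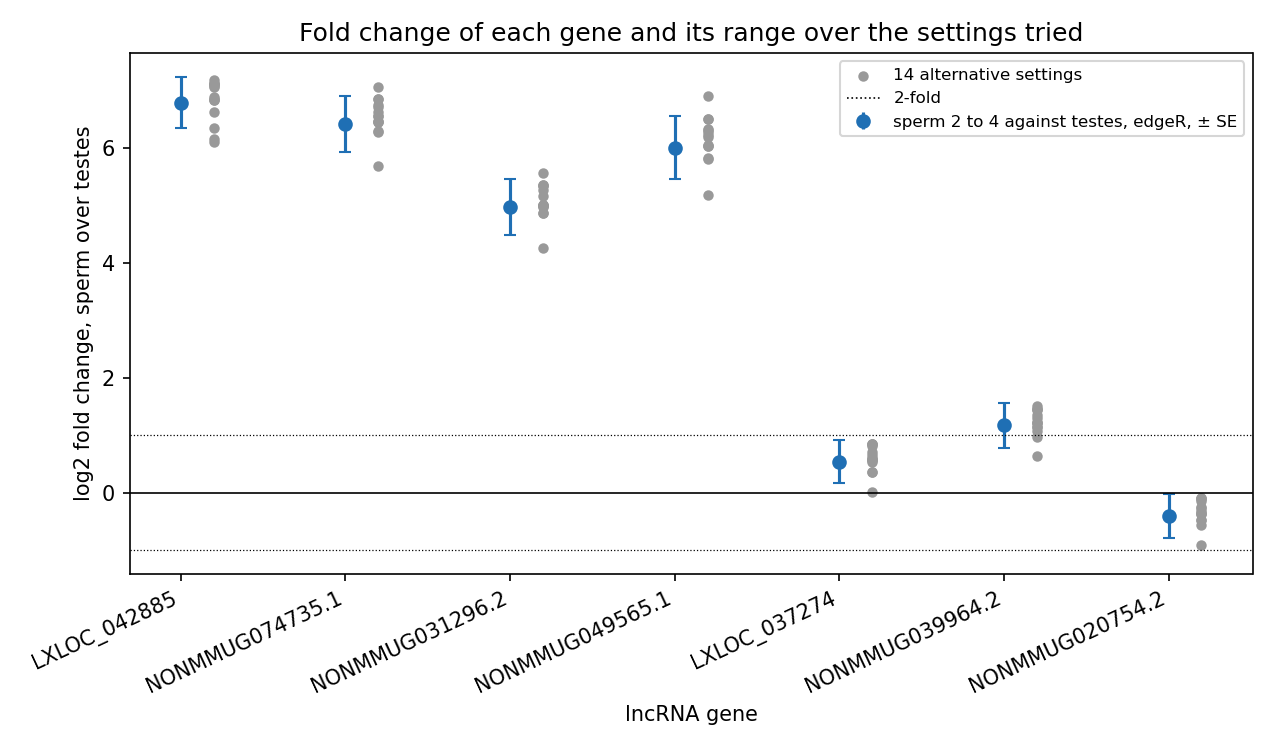
Log2 fold change of sperm over testes for the 7 genes. Blue points with bars are the gene-level edgeR fit ± 1 standard error, grey points the 14 alternative settings, and dotted lines a fold of 2. The 4 sperm-high genes lie between 4.98 and 6.80 and stay far above the 2-fold line in every setting shown, while the other 3 lie between -0.40 and 1.17.

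Ordered by mean FPKM, the genes ran in sperm from NONMMUG074735.1 (16880 ± 3674, SD, n = 3) through NONMMUG049565.1 (12178 ± 700), LXLOC_042885 (11704 ± 1086), NONMMUG031296.2 (11385 ± 5426), NONMMUG020754.2 (11183 ± 2790) and LXLOC_037274 (10132 ± 2999.9) to NONMMUG039964.2 (8368 ± 3369). Only the gap between the first and the second gene, 4702 FPKM, exceeded the larger SD of the neighbours. In testes the order was NONMMUG020754.2 (11818 ± 2330, SD, n = 2), LXLOC_037274 (5570 ± 1282), NONMMUG039964.2 (2920 ± 706), NONMMUG031296.2 (277 ± 139), NONMMUG074735.1 (155 ± 83.6), NONMMUG049565.1 (151 ± 102) and LXLOC_042885 (86.3 ± 32.9). There the first 3 gaps exceeded the SD and the last 3 did not.

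The choice left out 2 lncRNA genes that rank among the 7 by mean FPKM. NONMMUG020676.2 had 36164, 49420, 6605 and 8403 FPKM in sperm and 386 and 189 in testes, and NONMMUG020672.2 had 21449, 16924, 12456 and 9382 in sperm and 3315 and 1205 in testes. In both, sperm replicates 1 and 2 were above 3 and 4. At the lower edge, LXLOC_042885 with a mean of 6714 FPKM stood just inside and NONMMUG039787.2 with 6677 just outside. NONMMUG039787.2 had 10694, 6236, 9778 and 8050 FPKM in sperm and 2503 and 2802 in testes. The next below it, NONMMUG015766.2, had the opposite order, with 2453 to 3694 FPKM in sperm and 12059 and 14706 in testes. It was followed by NONMMUG020753.2, NONMMUG020675.2 and NONMMUG020674.2, with means of 5188, 4671 and 4572 FPKM.

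The 7 genes are made of 14 transcripts, and all 7 were listed in all 6 samples. Of the 7 genes, 5 have 1 transcript each. Of the 9 transcripts of NONMMUG020754.2 and NONMMUG039964.2, 4 held 1% or more of their gene's counts in some sample, and the other 5 reached at most 3.78 to 12.9 counts. NONMMUG020754.2 was carried by NONMMUT033771.2, of 632 bases, with 93.7% ± 1.10 of its counts in sperm (SD over 3 samples) and 94.99% ± 0.593 in testes (SD over 2 samples). NONMMUT033776.2, of 265 bases, held 6.29% ± 1.12 in sperm and 4.88% ± 0.582 in testes. NONMMUG039964.2 was carried by NONMMUT064718.2, of 1485 bases, with 99.0% ± 0.670 in sperm and 97.0% ± 0.808 in testes, and NONMMUT064717.2, of 1445 bases, held 1.04% ± 0.670 and 3.03% ± 0.808. Over all 4 sperm samples, the ranges of both minor transcripts overlapped with those of testes. For NONMMUT064717.2 the overlap rested on sperm replicate 1 alone, at 2.49%. Sperm replicates 2 to 4 had 0.706%, 0.606% and 1.81%, below both testes samples at 3.60% and 2.45%. The main transcript was thus the same in sperm and testes for both genes.

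**Figure D4:**
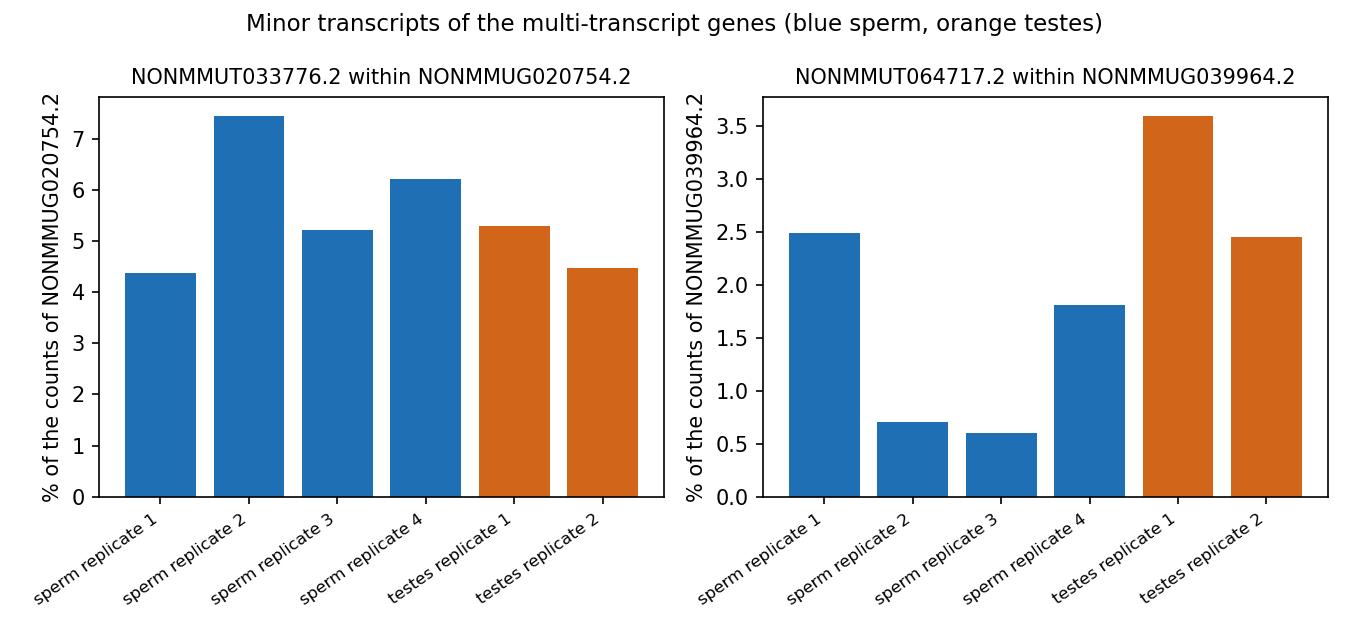
Bars give the share of a gene's counts (percent) held by its minor transcript in each sample (blue sperm, orange testes), for the 2 genes with more than 1 transcript at 1% or above. NONMMUT033776.2 lies between 4.37% and 7.45% of NONMMUG020754.2, and NONMMUT064717.2 between 0.606% and 3.60% of NONMMUG039964.2, where sperm replicate 1 and testes replicate 2 are nearly level.

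A transcript-level edgeR fit tested 11 of these 14 transcripts among 25822, of which 4.48% were called higher and 19.3% lower. NONMMUT033771.2 (log2 fold change -0.49, SE 0.37, adjusted p = 0.338) and NONMMUT033776.2 (-0.08, SE 0.60, adjusted p = 0.940) did not pass. NONMMUT064718.2, at 1.13 (SE 0.37, adjusted p = 0.0382), was called higher, with the call lost in 6 of 10 alternatives. NONMMUT064717.2, at -0.31 (SE 0.76, adjusted p = 0.799), was not called. NONMMUT033777.2 of NONMMUG020754.2 was called lower on 0 counts in all sperm samples and 4.33 and 6.58 in testes. The call was lost with each sperm replicate left out, with library size alone, with no filter and under the replicate block. With either testes replicate left out it did not reach the filter and was not tested. At the sperm depths the testes level of this transcript was not detectable, and no fold is given. It was singled out after its values were seen.

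The sperm samples are separate pools, and their spread differed between the genes. Over all 4, the coefficient of variation of the share was 9.32% for NONMMUG049565.1, 21.0% for NONMMUG074735.1, 22.6% for NONMMUG020754.2, 23.9% for LXLOC_037274, 34.3% for NONMMUG039964.2, 34.7% for LXLOC_042885 and 38.4% for NONMMUG031296.2, beside 0.894% to 1.92% from counting alone. In 6 of the 7 genes replicates 1 and 3 were both above replicates 2 and 4, as in 19.1% of the 1778 genes with a mean of 100 or more counts, and the count stayed at 6 when the counts of NONMMUG018329.2 were taken out or when shares were taken per mRNA count. Replicates 1 and 3 are also the shallowest libraries, at 424606 and 366455 counts, and what part depth has was not tested. LXLOC_042885 was the exception, with 0.498 times its 4-sample mean in replicate 1. NONMMUG018329.2 was also lowest there, at 0.373 times its mean. Without replicate 1 the coefficient of variation of LXLOC_042885 fell to 9.44%.

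**Figure D5:**
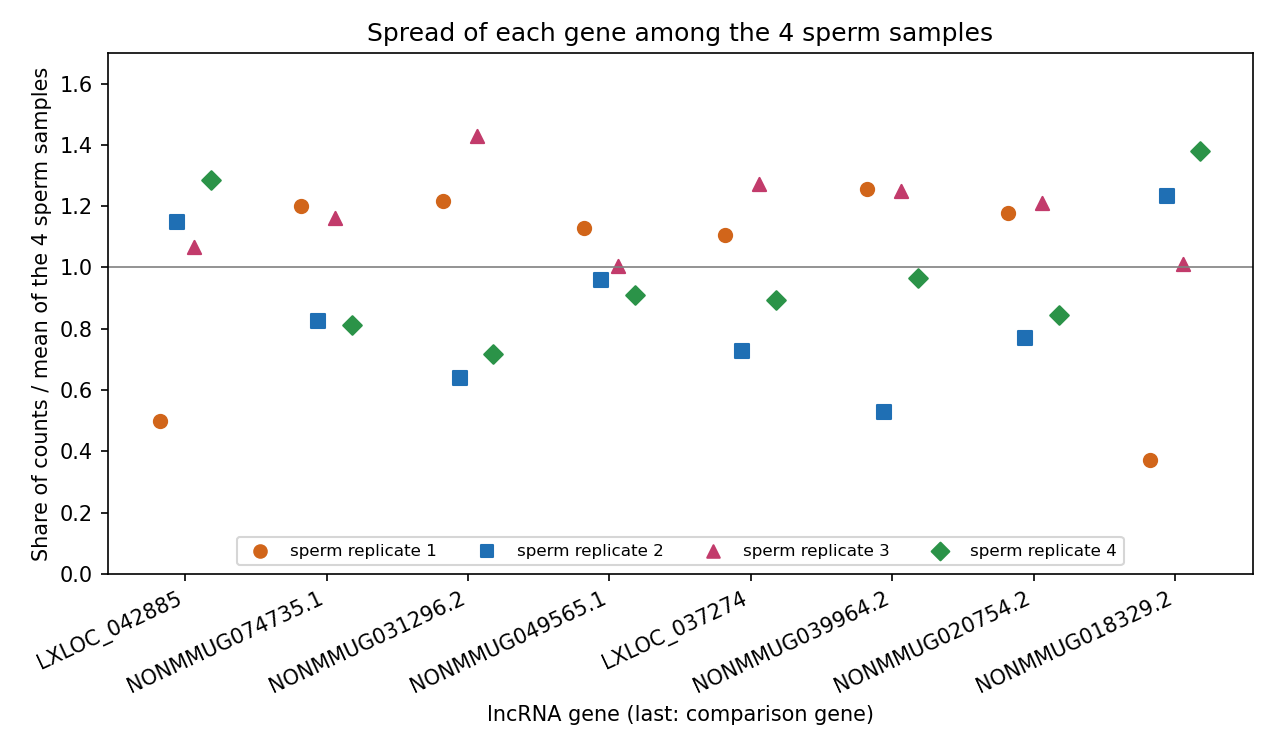
Share of counts in each sperm sample relative to the mean of the 4 sperm samples, for the 7 genes and for NONMMUG018329.2. Replicates 1 and 3 are above 2 and 4 in 6 of the 7 genes, while LXLOC_042885 and NONMMUG018329.2 are lowest in replicate 1.

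The testes samples differed in 1 direction. All 7 genes were higher in testes replicate 2 than in replicate 1, as were 63.2% of the 1778 genes. With 1 sample in each replicate, this difference has no test. The ratio was 2.79 for NONMMUG049565.1, 2.23 for NONMMUG074735.1, 2.10 for NONMMUG031296.2 and 1.74 for LXLOC_042885, and it was 1.41, 1.38 and 1.33 for NONMMUG039964.2, LXLOC_037274 and NONMMUG020754.2. Every ratio of the 4 sperm-high genes was larger than those of the other 3, and NONMMUG018329.2 went the other way, at 1.88% and 1.54%.

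The summed counts of NONMMUG020754.2, LXLOC_037274 and NONMMUG039964.2 were whole numbers, within 0.02, in 6 of 6 samples. Those of NONMMUG074735.1 and NONMMUG049565.1 were whole in 0 samples and those of NONMMUG031296.2 and LXLOC_042885 in 1. Within NONMMUG020754.2 and NONMMUG039964.2 the transcripts had fractional counts that summed to whole numbers. In sperm replicate 1, NONMMUT033771.2 and NONMMUT033776.2 had 3033.41 and 138.59 counts and their gene NONMMUG020754.2 had 3172. The sperm-high genes have 1 transcript each, so their fractions are not divided between transcripts of the same gene. The counting program is not known, and whether these genes share fragments with other genes was not tested. Of the 1778 genes with a mean of 100 or more counts, 53.0% were whole in all 6 samples, and so were 60.0% of the 200 called higher in sperm, 56.8% of the 780 called lower and 47.5% of the 798 not called. Sums whole in none of the 6 samples were found in 14.6% of these 1778 genes. The share was 15.0% of those called higher, 9.23% of those called lower and 19.8% of those not called. These comparisons were chosen after the data were seen, and whether the fractions bear on the fold changes was not tested.

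The genes that rose and fell most like each of the 7 were sought among 888 genes with a mean of at least 100 FPKM. Likeness was the Pearson r of log2(FPKM + 1) over the 6 samples, which ignores level and size of fold. These r are a description over 6 samples of 2 sources. For the genes that differ widely between sperm and testes, that step enters every value, while NONMMUG020754.2 overlaps between the sources and its r follow the spread within them. For the sperm-high genes r exceeded 0.9 for 223 (NONMMUG074735.1), 217 (NONMMUG049565.1), 210 (NONMMUG031296.2) and 209 (LXLOC_042885) candidates, so the nearest genes are hardly distinguished. They were NONMMUG054358.1 (r = 0.999) and the mRNA Cnbd2 (0.999) for NONMMUG074735.1, and Cnbd2 (1.00) and NONMMUG003532.2 (0.999) for NONMMUG049565.1. For NONMMUG031296.2 they were NONMMUG022268.2 (0.998) and NONMMUG015925.2 (0.998), and for LXLOC_042885 they were NONMMUG021608.2 (0.996) and NONMMUG006660.2 (0.995). The genes abundant in both sources had fewer neighbours above 0.9. NONMMUG020754.2 had 6, led by NONMMUG040818.2 (0.982) and NONMMUG084124.1 (0.949). LXLOC_037274 had 57, led by NONMMUG027336.2 (0.984) and NONMMUG074806.1 (0.980), and NONMMUG039964.2 had 60, led by NONMMUG066018.1 (0.985) and NONMMUG074806.1 (0.984).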

How the data were processed

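RNA of 4 sperm and 2 testes samples was depleted of rRNA with RNase H and sequenced strand-specifically from both ends. The authors removed adaptor, empty and low-quality reads. The study names SOAPaligner/SOAP2 as aligner, whereas the submitters' processing notes name HISAT and the build mm10. The counting program is not given in the sources used here. Transcript models were RefSeq mRNA, NONCODE lncRNA and the authors' own assemblies. The deposited tables hold an estimated count per transcript (expected count, not scaled for depth), FPKM and transcript length, per the file headers. Transcripts that a table does not list were set to 0.

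Counts were summed per gene, rounded and tested with edgeR 4.0.16 in R 4.3.3 (quasi-likelihood test, TMM scaling, Benjamini-Hochberg adjustment over all genes tested), for sperm replicates 2 to 4 against testes replicates 1 and 2. Genes with an FPKM of 1 or more in 2 or more of these 5 samples were tested. The same fit was made on transcripts. A call needed an adjusted p below 0.05 and a fold above 2. The procedure was also run on simulated data, whose outcome is not reported here and is no support for the calls. Alternatives were sets of samples, scaling, filter, replicate block, DESeq2 1.42.0 and limma 3.58.1 on log2(FPKM + 1) or log2(FPKM + 0.1). Replicates were grouped by title. Wilson 95% intervals and the limit of 3 counts cover counting error only, since fragments copied by PCR are not independent. Labels give no sequencing batch. Sperm replicates are pools of mice, and the number of mice in a testes replicate is not stated. The edgeR p-values rest on the spread between these replicates, moderated by the spread of all genes tested. A very small p is thus not from a gene's own spread over 5 samples alone. By limma on log2(FPKM + 1), the adjusted p of the 4 sperm-high genes ran from 0.00355 to 0.00369.

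The genes and marker lists were chosen with earlier results of these data known. Named singly were the 7 genes, their transcripts at 1% or more of the gene, NONMMUG018329.2, the lncRNA genes next to them in mean FPKM, the 2 genes most like each and markers with at least 10 counts in a sperm sample. The markers that reached it were Prm2, Tnp2, Odf2, Tssk6, Spem1 and Star, and Prm1, Kit, Cdh1 and Ptprc were named after their values were seen.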

Additional observations from a re-analysis of the deposited data

How the results depend on the processing

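The 4 sperm-high genes kept their call under every alternative that kept both testes samples. The choice of these genes by level enters every setting, so a kept call is no independent support. Over all 14 alternatives, log2 fold changes ran from 5.69 to 7.07 for NONMMUG074735.1 and 5.19 to 6.90 for NONMMUG049565.1. Those of NONMMUG031296.2 ran from 4.26 to 5.56 and those of LXLOC_042885 from 6.10 to 7.18. NONMMUG020754.2 (-0.91 to -0.09) and LXLOC_037274 (0.01 to 0.85) were called under none. NONMMUG039964.2 ran from 0.64 to 1.503 and lost its call in 8 of 14, with adjusted p of 0.283 under the replicate block and 0.0770 by limma on log2(FPKM + 0.1) among them. The comparison gene NONMMUG018329.2 lost its call under the block (adjusted p = 0.371) and without sperm replicate 4 (0.0907). NONMMUT033776.2, at -0.08, turned to 0.19 without sperm replicate 3, 0.16 without sperm replicate 4, 0.23 with library size alone, 0.0075 with no filter and 0.21 with limma. NONMMUT064717.2, at -0.31, turned to 0.063 with all 4 sperm samples, 0.11 without sperm replicate 2 and 0.014 with library size alone. With each replicate left out they ran from -0.30 to 0.19 and from -1.02 to 0.11. No value of either passed the test.

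Counts over all genes moved more. Against 1029 genes called higher and 4372 lower, leaving out 1 replicate gave 253 to 1748 and 582 to 2573, and no filter gave 423 and 921. Lower calls were 1355 with scaling from RefSeq mRNA and 2181 with DESeq2. Against 1158 transcripts higher and 4986 lower, leaving out 1 replicate gave 255 to 1854 and 527 to 2723, and no filter gave 430 and 934. All 4 sperm samples gave 653 higher and library size alone gave 1514 lower. The 1 transcript of these genes called lower became 0 with each sperm replicate left out, with library size alone, with no filter and under the block. With either testes replicate left out it was not tested. With a testes replicate left out, the lone testes sample is assumed to vary like the others.

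Share ratios depended on the denominator. Per mRNA count they were 134 for NONMMUG074735.1, 99.2 for NONMMUG049565.1 and 163 for LXLOC_042885. Without the counts of NONMMUG018329.2 the ratio of NONMMUG049565.1 was 86.7, and with all 4 sperm samples that of LXLOC_042885 was 116. By FPKM, NONMMUT033771.2 held 84.8% of its gene in sperm and 87.7% in testes, and NONMMUT033776.2 held 15.1% and 12.2%. The cause of these changes was not tested, apart from the change of unit or sample set itself.

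The deviations of same-numbered sperm and testes samples had a mean r of -0.05 over 2 pairs. With 2 testes samples this check cannot tell which samples share mice, so nothing is concluded from it. The study does not say which sperm and testes samples share mice, and the numbers are not taken to pair them. The testes came from the same mice as the sperm, and the main fit does not model that. With the replicate number as a block and all 4 sperm samples, 453 genes were called higher and 1111 lower, and 425 transcripts higher and 1072 lower. The 5 samples of the main comparison leave 0 residual degrees of freedom under a block. The testes values of the sperm-high genes rest on 143 to 1471 counts.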
